A study of Mus musculus with 27 samples.

Results

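The nucleosome calls examined here are those of the 4 histone H3 libraries of mouse embryonic fibroblasts (MEFs) and pre-iPSCs, cells stalled between the fibroblast and the induced pluripotent stem cell (iPSC). A call entered if it held at least 5 reads, which left 25620118 of the 38073612 calls in these libraries and of the 57466316 H3 calls of all 6 H3 libraries. The centre of a call, its dyad, was taken 73 bp from its start. For each library the distances between neighbouring dyads, the repeat length of nucleosome arrays and the shift of the nearest dyad in another library were measured, over the genome and from -1000 to +2000 bp of the transcription start sites (TSSs) of 20156 genes.

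MEFs were derived from embryos (e13.5) that were hemizygous for an Oct4-GFP reporter transgene and for a Rosa26 allele, from males carrying the reporter and 129Sv/Jae females. The labels give the genetic background CBA/CaJ and C57BL/6J for the libraries of replicate 1 and no background for those of replicate 2. The paper's methods give CBA/CaJ x C57BL/6J for the males of this cross and set no replicate apart. Pre-iPSCs were made from such fibroblasts with the 4 Yamanaka factors on retroviruses, so that they share these alleles, were kept on MEF feeders, and were stable clones. The sources used here do not say which clone a library came from. Each cell type had 2 H3 libraries, given as biological replicates. Mononucleosomes were freed by micrococcal nuclease (MNase) from crosslinked cells and enriched with an antibody to H3, and MEFs received another amount of enzyme for another time than pre-iPSCs. The media also differed: fibroblast medium for MEFs, and embryonic stem cell medium with leukaemia inhibitory factor for pre-iPSCs. Digestion, medium and cell type therefore cannot be told apart in any difference between the cell types.

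A nucleosome is a stretch of DNA wrapped around 8 histones, and the linker DNA to its neighbour sets the nucleosome repeat length of a chromatin fibre. Linker histone H1 is known to lengthen the repeat. Remodelling enzymes of the ISWI and CHD1 families space nucleosomes evenly from a fixed barrier, such as the depleted region of an active promoter or DNA bound by the zinc-finger protein CTCF. The first nucleosome downstream of a TSS is called +1, and arrays there and around CTCF fade with distance.

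The labels of the cell types were checked in their RNA-seq libraries, 2 of each, where fewer cells of a type and less RNA per cell cannot be told apart. The fibroblast genes Col1a1, Col1a2, Col3a1, Thy1 and Twist2 fell in pre-iPSCs, and the epithelial genes Cdh1 and Epcam rose. The other fibroblast gene of the list, Pdgfra, stood at 4.28 and 5.18 FPKM in MEFs and at 3.25 and 0.633 in pre-iPSCs (limma adjusted p = 0.192). The other epithelial gene, Cldn6, was listed at 0 in both MEF libraries and stood at 0.287 and 0 FPKM in pre-iPSCs (limma adjusted p = 0.811). Col1a1, a fibrillar collagen, stood at 2144 and 1614 FPKM in MEFs and at 93.7 and 27.7 in pre-iPSCs, which were grown on fibroblast feeders. The share of feeder cells in the pre-iPSC libraries was not tested. Pou5f1, which was among the transduced factors, stood at 0 and 0.5004 FPKM in MEFs and at 378 and 3184 in pre-iPSCs. Dppa5a and Utf1 also rose. Nanog, Zfp42 and Esrrb, markers of full pluripotency, stood between 0 and 0.520 FPKM in all 4 of these libraries.

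In call number, reads per call and base content, the pre-iPSC libraries differed from one another more than the MEF libraries did. Calls of at least 5 reads numbered 7073555 and 8066494 in MEF replicates 1 and 2, 3447902 in pre-iPSC replicate 1 and 7032167 in pre-iPSC replicate 2. They held a median of 8, 9, 19 and 8 reads in that order. The DNA under these calls was 52.1% G or C in pre-iPSC replicate 1, and between 44.3% and 44.8% in the other 3 libraries. At the dyad the G and C content exceeded that of the DNA 90 to 110 bp away by 10.2 percentage points in pre-iPSC replicate 1, and by 4.57 to 4.90 points in the others. Calls of any read count together held 67414592, 82775565, 108211816 and 67362868 reads, in the same order of libraries. Pre-iPSC replicate 1 thus had the most reads but the fewest and best covered calls, on GC-richer DNA, and each library is given alone. Fuzziness, the SD of the read positions of a call, had a median of 31.05 bp there and of 34.02 to 34.41 bp in the others. Just outside the limit, calls of 4 reads had a median fuzziness of 26.97 to 31.53 bp over the 4 libraries, and just inside it, calls of 5 reads had one of 28.12 to 32.34 bp.

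CTCF sites give a fixed point in the sequence from which dyads can be measured. The core of the CTCF motif, CCACNAGGNGGC, was searched on both strands of the mm9 genome and found 6667 times, 3410 times on the plus strand and 3257 times on the minus strand. Of 32851 RefSeq promoters of 300 bases (build GRCm38.p6, used for this share alone), 107, or 0.326%, held a match. A match is a description of the sequence and not a measured binding site. Outside chromosomes 18, X, Y and M there were 6208 matches. At 277 of these, all 4 libraries had a dyad 60 to 260 bp away on both sides. Printed below, 5′ to 3′ on the strand of the motif and with the motif in capitals, are 300 bases of mm9 around 3 sites whose dyads differed least between the 4 libraries, and 1 whose dyads lay farther apart in pre-iPSCs. They were chosen by these positions, which are therefore only described, among those of the 277 sites whose 300 bases held no exon and a single match.
Padi1 intron, chr4:140377942-140378241, plus strand: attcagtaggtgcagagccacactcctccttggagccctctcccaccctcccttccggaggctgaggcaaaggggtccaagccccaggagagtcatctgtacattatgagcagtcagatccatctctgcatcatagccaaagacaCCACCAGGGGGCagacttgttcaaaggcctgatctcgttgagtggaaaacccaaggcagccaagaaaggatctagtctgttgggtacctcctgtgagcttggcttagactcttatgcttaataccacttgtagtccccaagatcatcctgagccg
4669 bp from Matn1, between genes, chr4:130516059-130516358, plus strand: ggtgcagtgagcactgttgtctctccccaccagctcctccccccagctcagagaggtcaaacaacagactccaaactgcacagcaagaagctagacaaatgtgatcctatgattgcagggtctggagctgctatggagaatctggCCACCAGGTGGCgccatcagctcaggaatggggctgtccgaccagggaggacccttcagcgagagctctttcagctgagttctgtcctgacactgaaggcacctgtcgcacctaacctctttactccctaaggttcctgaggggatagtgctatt
30092 bp from Hhip, between genes, chr8:82459623-82459922, plus strand: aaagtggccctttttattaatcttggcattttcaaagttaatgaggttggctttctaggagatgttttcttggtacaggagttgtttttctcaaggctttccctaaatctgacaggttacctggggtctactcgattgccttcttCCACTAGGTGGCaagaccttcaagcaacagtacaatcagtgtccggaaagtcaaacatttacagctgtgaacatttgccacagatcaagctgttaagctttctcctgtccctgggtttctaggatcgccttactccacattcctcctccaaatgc
Pde10a intron, chr17:8790679-8790978, minus strand: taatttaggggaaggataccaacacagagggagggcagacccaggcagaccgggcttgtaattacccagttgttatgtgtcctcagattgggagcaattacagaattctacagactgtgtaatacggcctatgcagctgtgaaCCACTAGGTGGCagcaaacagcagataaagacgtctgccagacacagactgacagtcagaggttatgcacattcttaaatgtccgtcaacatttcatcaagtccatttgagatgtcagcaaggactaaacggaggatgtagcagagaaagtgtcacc

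In the intron of Padi1, which encodes a peptidylarginine deiminase, the upstream dyads lay 132 and 133 bp from the motif centre in MEF replicates 1 and 2 and 127 bp in both pre-iPSC libraries. The downstream dyads lay at 245, 239, 233 and 241 bp, in the order MEF replicate 1, MEF replicate 2, pre-iPSC replicate 1 and pre-iPSC replicate 2, which is kept below. From flank to flank this was 377, 372, 360 and 368 bp, a difference of -10.5 bp, and the cell types did not overlap. Near Matn1, a gene of a cartilage matrix protein, they lay at 145, 145, 146 and 140 bp upstream and at 155, 144, 157 and 144 bp downstream. Near Hhip, which encodes a binding protein of hedgehog ligands, they lay at 212, 199, 210 and 207 bp upstream and at 173, 166, 162 and 172 bp downstream. The cell types overlapped at Matn1 and Hhip on both sides. In the intron of Pde10a, a phosphodiesterase gene, the dyads lay at 158, 150, 157 and 154 bp upstream and at 166, 164, 178 and 181 bp downstream. The distance from flank to flank there was 324 and 314 bp in MEFs and 335 bp in both pre-iPSC libraries, a difference of 16.0 bp between the means. The libraries of each cell type differed by at most 10 bp on each side at 7 of the 277 sites, and there the difference ran from -10.5 to 24 bp. The site in Pde10a had the largest of them that met the conditions on exons and matches. Over the 277 sites, the dyad on a flank differed by a median of 22 bp between the MEF libraries and 17 bp between the pre-iPSC libraries, and by 15 to 23 bp between libraries of different cell types. Differences between cell types were thus of the size of those within them.

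Averaged over all 6667 matches, dyads formed arrays in all 4 libraries, and their spacing differed between the cell types by less than between libraries. The first peak of called dyads lay 143, 140, 147 and 146 bp from the centre of the CTCF motif. The first 3 peaks were 175.5, 172.5, 173.5 and 175.0 bp apart, a mean of 174 ± 2.12 bp in MEFs and of 174 ± 1.06 bp in pre-iPSCs (SD, n = 2 each). The difference, pre-iPSC minus MEF, was 0.25 bp, less than the SD of 1.68 bp between libraries of a cell type, and the groups overlapped. Over 5 peaks the spacing was 177.8, 172.3, 178.1 and 174.9 bp. MEF replicate 2 was again shortest, but pre-iPSC replicate 1 was longest instead of MEF replicate 1. For 2 libraries against 2 the smallest p of an exact two-sided permutation test is 0.33, and none is given for values of this kind. The first peak stood 2.32, 2.30, 2.49 and 2.23 times above the following trough, and the cell types overlapped there too. At the motif itself the libraries parted. Dyads at the centre of the CTCF motif stood at 0.864, 0.859, 1.34 and 0.846 of their level 1200 to 1500 bp away, so that pre-iPSC replicate 1 alone among these 4 libraries had more calls on the motif than at that distance.

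**Figure D1:**
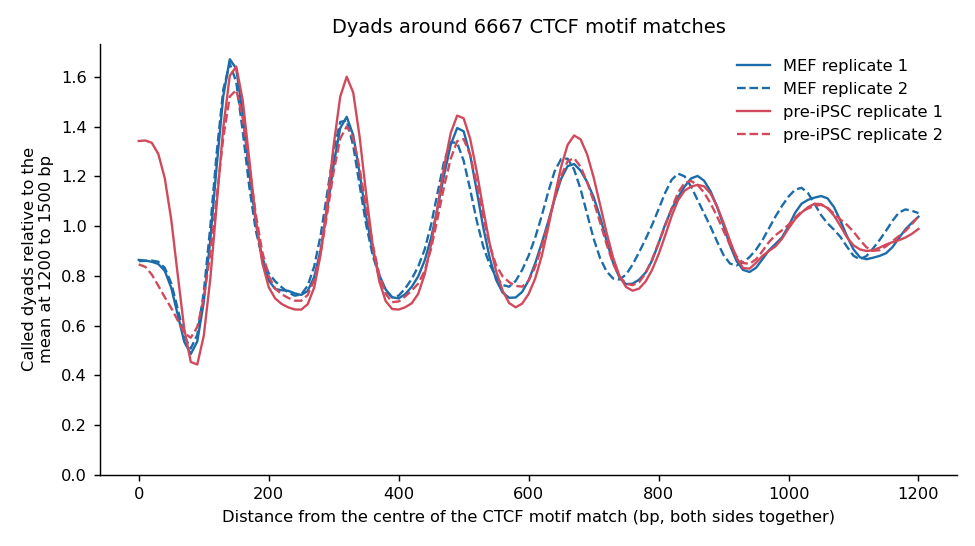
Called dyads around CTCF motif matches, both sides summed, against the distance from the motif centre in bp, relative to the mean at 1200 to 1500 bp. Lines are the 4 H3 libraries (blue MEFs, red pre-iPSCs, broken lines replicate 2), whose first peaks lie between 140 and 147 bp, while pre-iPSC replicate 1 alone is raised at the motif.

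Among calls of at least 5 reads, neighbouring dyads lay slightly farther apart in pre-iPSCs, and this did not hold in every library at other thresholds. Among neighbours at most 300 bp apart, the median distance was 204 bp in MEF replicate 1, 202 bp in MEF replicate 2, 207 bp in pre-iPSC replicate 1 and 206 bp in pre-iPSC replicate 2. The cell types did not overlap, and the means were 203 ± 1.41 and 206.5 ± 0.707 bp (SD, n = 2 each). The difference of 3.5 bp was larger than the SD of 1.12 bp between libraries of a cell type. It rested on long distances: among neighbours at most 250 bp apart, the medians were 191, 190, 191 and 190 bp, a difference of 0 bp. When every library was reduced to its 3447902 best covered calls, the medians were 207, 206, 207 and 210 bp. A minimum of 10 reads per call gave 209, 206, 205 and 212 bp, so that the cell types overlapped and pre-iPSC replicate 1 was below both MEF libraries. The most frequent distance was 167, 169, 170 and 165 bp. Of all neighbours, 63.6%, 71.5%, 42.0% and 64.3% were at most 300 bp apart. In pre-iPSC replicate 1, 16.7% of neighbours were more than 1000 bp apart, against 1.69% to 2.86% in the other 3 libraries. The caller places no pair of dyads closer than 147 bp in any of these libraries, the length of a call, so shorter distances were not measurable.

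The repeat length was read from all distances of up to 1500 bp between dyads, whose counts rise and fall with each further nucleosome. The first 5 peaks of these counts lay at 167, 387, 577, 771 and 964 bp in MEF replicate 1. They lay at 170, 379, 563, 750 and 942 bp in MEF replicate 2. In pre-iPSC replicate 1 they lay at 170, 394, 597, 792 and 982 bp, and in pre-iPSC replicate 2 at 164, 390, 579, 772 and 963 bp. From the slope of these positions the repeat length was 197.8, 191.5, 202.2 and 198.0 bp, a mean of 194.65 ± 4.45 bp in MEFs and of 200.1 ± 2.97 bp in pre-iPSCs (SD, n = 2 each). The difference of 5.45 bp was larger than the SD of 3.79 bp between libraries of a cell type, but MEF replicate 1 and pre-iPSC replicate 2 differed by less than 1 bp. It was 2.3 bp without MEF replicate 2, the shortest, and 3.35 bp without pre-iPSC replicate 1, both below that SD, and 8.6 bp without MEF replicate 1. The cell types overlapped in this measure with 3447902 calls in every library, at 197.6, 192.2, 202.2 and 196.9 bp. They also overlapped with calls of at least 10 reads, at 197.7, 192.2, 202.4 and 197.6 bp. The first peak is cut off by the smallest distance a call allows. From peaks 2 to 5 the repeat length was 192.5, 187.6, 195.9 and 191.2 bp, and there the cell types overlapped. Taken by the 2 sets of libraries, those titled without and with rep, pre-iPSCs exceeded MEFs by 3.4 and 3.6 bp in this measure and by 4.4 and 6.5 bp with peaks 1 to 5. The period of a damped cosine fitted from 290 to 1100 bp was 191.6, 184.7, 199.4 and 198.4 bp, and there they did not overlap. With 3447902 calls in every library the period was 192.0, 187.9, 199.4 and 191.6 bp, and they overlapped. For comparison, the iPSC libraries had repeat lengths of 189.0 and 191.9 bp from 5 peaks.

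**Figure D2:**
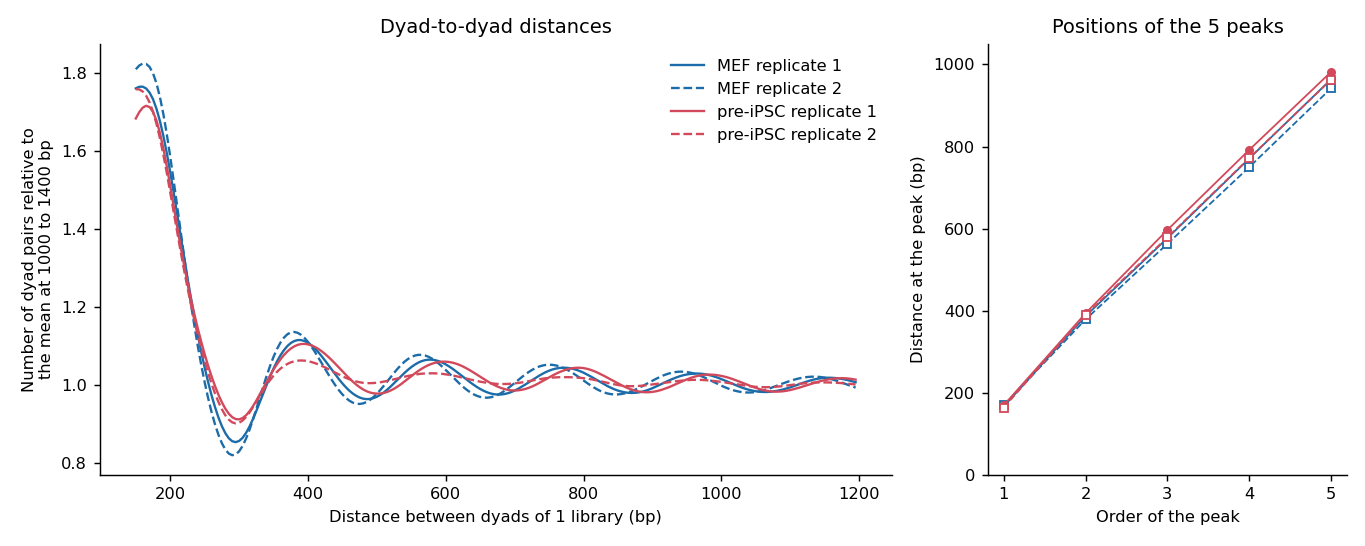
On the left, the number of dyad pairs of 1 library at each distance in bp, smoothed and relative to the mean at 1000 to 1400 bp. On the right, the positions of the first 5 peaks in bp. Blue lines are MEFs and red lines pre-iPSCs, with broken lines for replicate 2. The peaks of MEF replicate 2 fall earliest from the second on and those of pre-iPSC replicate 1 latest.

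Genome-wide, the second peak was flatter in both pre-iPSC libraries than in either MEF library, but by little in pre-iPSC replicate 1. It stood 1.16, 1.19, 1.13 and 1.06 times above the trough that follows it, lowest in pre-iPSC replicate 2. Pre-iPSC replicate 1 was about as near MEF replicate 1 as the MEF libraries were to each other. How far this ratio depends on the number of calls was not tested. Peaks were not flatter in both pre-iPSC libraries in every region. In bins with the most H3K4me3 reads the ratio was 1.14, 1.13, 1.19 and 1.06, and in the bodies of genes that fell in pre-iPSCs it was 1.11, 1.09, 1.15 and 1.06, highest in pre-iPSC replicate 1. Among iPSCs the genome-wide ratio was 1.26 and 1.05, which spans all 4 values. On single autosomes, the repeat length was 196.5 to 202.2 bp in MEF replicate 1, 189.5 to 193.3 bp in MEF replicate 2, 197.6 to 208.1 bp in pre-iPSC replicate 1 and 188.8 to 202.5 bp in pre-iPSC replicate 2. Pre-iPSC replicate 1 was longer than MEF replicate 1 on 17 of 19 autosomes and longer than MEF replicate 2 on all 19. Pre-iPSC replicate 2 was longer than MEF replicate 2 on 17 of 19 but longer than MEF replicate 1 on only 9. The MEF libraries differed as clearly from each other, with MEF replicate 1 longer on all 19 by a median of 5.9 bp. Autosomes share their library and are not replicates, so these counts describe the libraries and not the cell types.

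**Figure D3:**
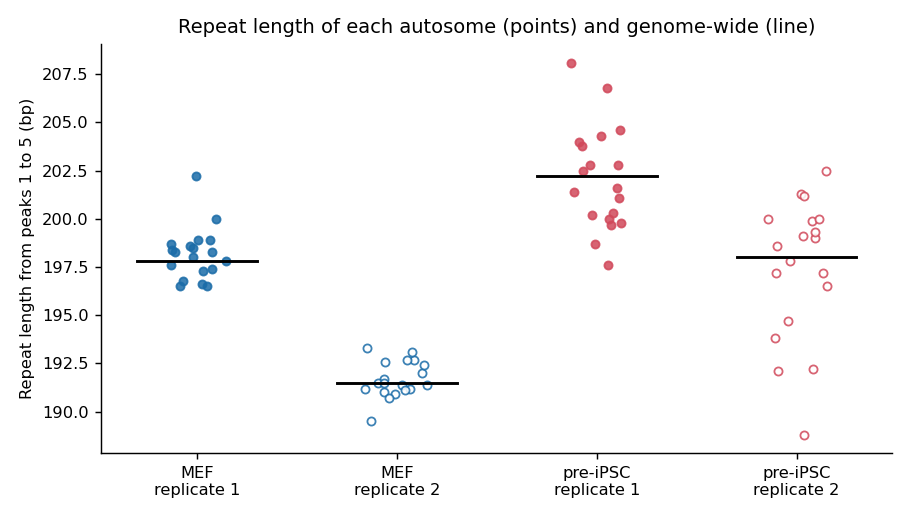
Repeat length in bp from 5 peaks of dyad-to-dyad distances for each of 19 autosomes (points) and genome-wide (line) in the 4 H3 libraries. The axis does not start at 0. The points of MEF replicate 2 lie between 189.5 and 193.3 bp, apart from those of MEF replicate 1, which overlap those of both pre-iPSC libraries.

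By base content, the repeat length rose from AT-rich to GC-rich parts of the genome in both MEF libraries. Over 5 equal classes of 10000-bp bins from the lowest to the highest GC content it was 193.4, 196.0, 196.8, 198.3 and 199.8 bp in MEF replicate 1 and 188.0, 190, 191.1, 192.2 and 194.5 bp in MEF replicate 2. In pre-iPSC replicate 1 the peaks could not be followed in the lowest class, and the other classes had 200.1, 210.1, 200.2 and 202.6 bp. In pre-iPSC replicate 2 the classes had 182.0, 197.4, 194.1, 197.5 and 200.7 bp, so neither pre-iPSC library rose steadily. The repeat length also varied more over autosomes in pre-iPSCs, with an SD of 2.7 and 3.6 bp against 1.36 and 0.943 bp in MEFs. Whether the uneven steps between classes in pre-iPSCs exceed the error of the estimate was not tested. In the highest class both pre-iPSC libraries were above both MEF libraries, and in the next lower one they were not. In bins with the most reads of H3K27me3 in MEFs, the mark laid down by Polycomb, the repeat length was 199.5, 194.4, 201.6 and 200.8 bp. In those with the most reads of H3K9me3, a mark of heterochromatin, it was 198.9, 193.1, 201.0 and 198.8 bp. In those with the most reads of H3K4me3, a mark of active promoters, it was 201.5, 188.9, 201.0 and 199.5 bp. Each class was the highest 5% of bins. In all 3 classes MEF replicate 2 was shortest and the other 3 libraries lay within 3 bp of each other. In the bodies of genes listed at 0 FPKM in both cell types it was 199.5, 191.6, 200.9 and 198.8 bp, and outside gene bodies it was 197.3, 191.1, 201.7 and 196.3 bp. In both classes pre-iPSC replicate 2 lay between the MEF libraries. In the bodies of genes in the highest 5% of FPKM the peaks could not be followed in pre-iPSC replicate 2.

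At TSSs pre-iPSC replicate 1 stood apart from the other 3 libraries by the height of its arrays and not by their spacing. Summed over 20156 genes, the +1 peak lay 129, 124, 127 and 142 bp downstream of the TSS. The peaks of +1, +2 and +3 were 190.5, 183.0, 182.5 and 179.5 bp apart, with means of 186.75 ± 5.30 bp in MEFs and 181 ± 2.12 bp in pre-iPSCs (SD, n = 2 each). The difference of -5.75 bp was larger than the SD of 4.04 bp between libraries of a cell type, but it rested on the choice of MEF library. It was -2 bp without MEF replicate 1, below that SD, and -9.5 bp without MEF replicate 2. It turned with the number of calls: with 3447902 calls in every library the spacings were 187.0, 171.0, 182.5 and 186.5 bp, a difference of 5.5 bp. Its sign was also opposite to that of the repeat length genome-wide. The +1 peak reached 1.90, 2.54, 5.46 and 1.57 called dyads per bp and 1000 TSSs, and it stood 1.31, 1.35, 2.21 and 1.17 times above the trough before +2. Pre-iPSC replicate 2, the library of the same cell type, was lower than both MEF libraries in both measures. Replicate 1 of iPSCs was as high as that of pre-iPSCs, at 5.83 called dyads and 2.17 times above the trough, and replicate 2 of iPSCs stood at 2.34 and 1.41. The lowest level between -150 and +50 bp was 0.532, 0.573, 0.984 and 0.472 of the mean level from -1000 to -501 bp. By this measure the start site lay below the upstream level in 3 libraries, and close to it in the summed calls of pre-iPSC replicate 1. The measure depends on the upstream level, and the depth relative to the +1 peak was not measured. It therefore does not show that a depleted region is absent there.

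Among 733 genes in the highest 5% of FPKM in both cell types, the +1 peak lay at 135, 136, 136 and 132 bp, within 4 bp in all 4 libraries. Its height there was 1.63, 1.93, 8.11 and 0.639 called dyads per bp and 1000 TSSs. It stood 3.22, 3.11, 4.14 and 2.47 times above the following trough. The peaks of +1 to +3 of these genes were 184.5, 196.0, 185.0 and 186.0 bp apart, and the cell types overlapped. The depleted region was present in every library, at 0.0565, 0.0547, 0.200 and 0.0228 of the upstream level. At 3942 genes listed at 0 FPKM in both cell types, the lowest level around the TSS was 0.963, 0.968, 1.11 and 0.964 of the upstream level, and no such region was seen. Of these 3 sets of genes, the highly expressed one had the lowest start sites in all 4 libraries.

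**Figure D4:**
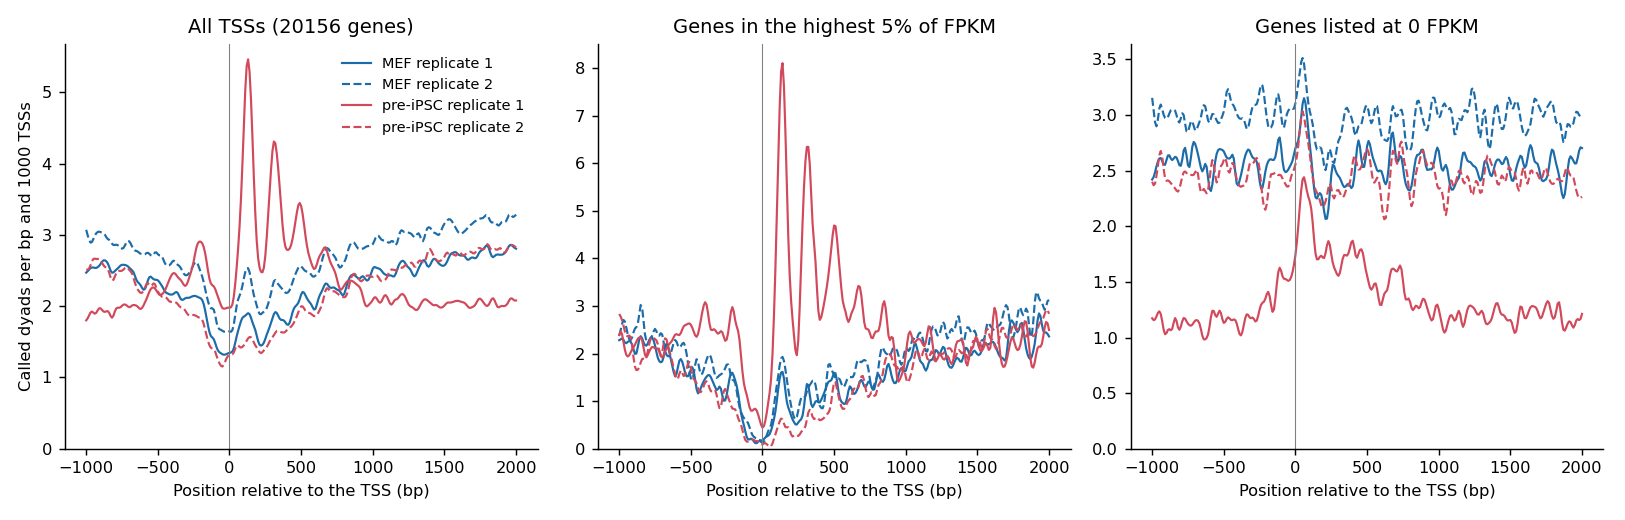
Called dyads per bp and 1000 TSSs against the position relative to the TSS in bp, for all genes, for genes in the highest 5% of FPKM in both cell types and for genes listed at 0 FPKM. Lines are the 4 H3 libraries (blue MEFs, red pre-iPSCs, broken lines replicate 2). Pre-iPSC replicate 1 rises to 8.11 at the +1 peak of highly expressed genes, and pre-iPSC replicate 2 stays below both MEF libraries there.

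For single genes, the +1 dyad was taken as the first call 1 to 250 bp downstream of the TSS. Such a call was present at 7490, 9445, 15345 and 6459 genes and in all 4 libraries at 2851, so most genes had no value in at least 1 library. These 2851 genes had passed a limit on reads in every library, and they held only 15 of the 733 highly expressed genes but 943 of the 3942 genes at 0 FPKM. Their median +1 position was 106, 103, 102 and 111 bp, with means of 104.5 ± 2.12 bp in MEFs and 106.5 ± 6.36 bp in pre-iPSCs (SD, n = 2 each). The pre-iPSC libraries lay on both sides of the MEF libraries, and the difference of 2 bp was less than the SD of 4.74 bp between libraries of a cell type. The nearest call upstream, within 400 bp, lay at a median of -158, -139, -121 and -164 bp at 5173 genes with a value in all 4. It was again pre-iPSC replicate 1 and replicate 2 that stood at the ends of this range.

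In a test of each gene (limma, Benjamini-Hochberg adjustment over all genes with a value), 0 of 2851 genes were called for +1 position, a background of 0% called. In simulated data of this spread, changes nearly as wide as the window were not called either, so this count does not bear on whether positions changed. The smallest adjusted p by limma was 0.395, and 206 genes, or 7.23%, had an unadjusted p below 0.05, with 106 farther from the TSS in pre-iPSCs and 100 nearer. With a trend and robust fit in limma, 0 genes were called and 175 had an unadjusted p below 0.05. Positions of the +1 dyad of the same gene differed by a median of 46 bp between the MEF libraries and 41 bp between the pre-iPSC libraries. Between libraries of different cell types they differed by 37 to 51 bp. Across these genes, which are not independent replicates, Pearson's r of the positions was 0.159 between the MEF libraries, 0.158 between the pre-iPSC libraries and 0.127 to 0.194 between cell types. In both measures the values between cell types lay on both sides of those within them. A gene's +1 call was thus no better placed by its own cell type than by the other.

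The uncalled genes with the smallest p were picked for their differences, which are only described. Gstm3, a glutathione transferase gene (TSS at 107772092 on chromosome 3, minus strand), had its first call at 25 and 24 bp in MEFs and at 231 bp in both pre-iPSC libraries. The value is the first call from 1 bp downstream on, so a dyad at or upstream of the TSS does not enter it. Also farther downstream in pre-iPSCs were 9430031J16Rik, Slc9a4 and D930020E02Rik. Ndrg2, a stress-response gene of chromosome 14 (TSS at 52533163, minus strand), had its first call at 243 and 234 bp in MEFs and at 35 and 22 bp in pre-iPSCs. Metap2, a methionine aminopeptidase gene (TSS at 93353947 on chromosome 10, minus strand), had it at 249, 225, 31 and 45 bp. Also nearer the TSS in pre-iPSCs were 1700019N12Rik, D730048I06Rik and Usp37, a deubiquitinase gene. All of these genes had an adjusted p of 0.395 by limma.

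The spacing of dyads from -1000 to +2000 bp was tested at 1900 genes with at least 5 neighbour distances in every library. The median over genes was 202, 199.5, 200 and 202.5 bp, and the cell types overlapped. By limma, 0 of 1900 genes were called, a background of 0% called, with a smallest adjusted p of 0.928. In simulated data only changes far larger than the spread between libraries were called. At an unadjusted p below 0.05 there were 89 genes, or 4.68%, and 80 with a trend and robust fit. The spacing of a gene differed by a median of 18.5 bp between the MEF libraries, 20 bp between the pre-iPSC libraries and 17.5 to 21 bp between cell types, and Pearson's r across genes was 0.001 to 0.068 in all 6 pairs of libraries. Gene by gene, spacing was thus nearly unrelated between any of these libraries, those of 1 cell type included. Among the uncalled genes with the smallest p were Zdhhc25, Nwd1, Krtap12-1, Mrc1 and Trim17 on the wider side and 1700007E06Rik, Scrt1, Cd52 and Fcgr4 on the narrower side. Mrc1, the mannose receptor of macrophages, had spacings of 187, 198.5, 253 and 246.5 bp. Scrt1, a neural transcription factor gene, had spacings of 240, 242, 178.5 and 178 bp. The number of calls in this window was tested too: 0 of 20156 genes were called by limma (smallest adjusted p 0.806). By the same test 709 genes, or 3.52%, had an unadjusted p below 0.05. Of these, 517 held fewer calls in pre-iPSCs and 192 more, beside a median difference of -0.5 calls over all genes.

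Genes of known roles in reprogramming were compared with all genes by counts. Of 21 pluripotency genes in the table, 5 had a +1 call in all 4 libraries, 0 were called, and the median difference was 9 bp, beside -0.5 bp over all 2851 genes. In expression 10 of 21 rose and 0 fell, beside 7.39% and 9% of all 12401 genes tested. The list holds Pou5f1, Sox2 and Klf4, which were among the transduced factors. Their FPKM were not divided between the transgenes and the cells' own genes. Pou5f1, the core pluripotency factor (TSS at 35642976 on chromosome 17, plus strand), had its +1 dyad at 145, 92, 150 and 143 bp. Lin28a, an RNA-binding protein gene, had it at 73, 76, 80 and 83 bp, within 10 bp in all 4 libraries. Dnmt3l, a cofactor of DNA methyltransferases, had it at 69 and 101 bp in MEFs and at 138 bp in both pre-iPSC libraries, and Nanog at 74, 192, 80 and 24 bp. None of these differences passed the test (limma adjusted p 0.905 to 0.996).

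Of 24 fibroblast and mesenchymal genes, 21 fell in expression and 0 rose. Only 3 of these 24 had a +1 call in all 4 libraries, and 0 were called. Their median difference was -113 bp, with all 3 means nearer the TSS in pre-iPSCs, beside 1449 nearer and 1391 farther of all 2851 genes. Col1a1 (TSS at 94797583 on chromosome 11, plus strand) had its first call at 212 and 110 bp in MEFs and at 28 and 47 bp in pre-iPSCs (limma adjusted p = 0.685). Postn, a matrix protein gene, had it at 222, 123, 110 and 9 bp, and Pdgfrb, a growth factor receptor gene, at 105, 241, 38 and 206 bp. Postn and Col1a1 did not overlap between the cell types, and Pdgfrb did. Of 12 epithelial genes, 8 rose and 1 fell in expression. The tight-junction gene Cldn4 was the only one with a +1 call in every library, at 195, 19, 3 and 54 bp. Of 76 genes of cytoplasmic ribosomal proteins, 0 rose and 1 fell, and 2 had a +1 call in every library. Their median difference was -22 bp. Rps26 had it at 161, 183, 154 and 160 bp, and Rpl39l at 138, 95, 90 and 85 bp. The number of calls from -1000 to +2000 bp had a median of 4, 5, 10 and 6 per gene in the fibroblast list, beside 7, 8, 7 and 7 over all genes. In the ribosomal protein list it was 4, 5, 7 and 3.5, in the epithelial list 9, 10, 12 and 6, and in the list of spacing genes 4, 5, 7 and 3. In the pluripotency list it was 10, 11, 10 and 7, so that it was highest in pre-iPSC replicate 1 in 4 of 5 lists and in MEF replicate 2 in this one.

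The shift of the nearest dyad was as large within a cell type as between them. From a call of pre-iPSC replicate 1, the nearest dyad lay a median of 54 bp away in MEF replicate 1 and 43 bp away in MEF replicate 2. From a call of pre-iPSC replicate 2 it lay 56 and 50 bp away. The mean of these 4 pairs was 50.75 bp with an SD of 5.74 bp over the pairs, which share libraries. Within cell types, it lay 48 bp from MEF replicate 1 to MEF replicate 2, 58 bp in the other direction, and 51 bp from pre-iPSC replicate 1 to replicate 2. From pre-iPSC replicate 2 to replicate 1, which has fewer calls to meet, it was 184 bp. Likewise, from MEF calls to pre-iPSC calls it was 193 and 199 bp to replicate 1 but 56 and 60 bp to replicate 2. The signed median was 0 bp in every pair. It was taken along the chromosome without regard to the strand of genes, so it cannot show a direction relative to genes. With 3447902 calls in each library, the shift was 175 and 148 bp from pre-iPSC replicate 1 to the MEF libraries and 110 and 108 bp from pre-iPSC replicate 2, a mean of 135.25 bp. In that setting it was 111 bp within MEFs in both directions and 151 and 152 bp within pre-iPSCs, so that the pairs with pre-iPSC replicate 1 were the largest.

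Taking only calls that were nearest to each other and less than 73 bp apart, the median shift was 23, 21, 27 and 27 bp between cell types, in the same order of pairs, and 26 bp within MEFs and 22 bp within pre-iPSCs. Of the calls of pre-iPSC replicate 1, 17.1% had a dyad within 10 bp in MEF replicate 1 and 21.5% in MEF replicate 2, beside 18.7% in pre-iPSC replicate 2. Better covered calls lay closer. Calls were ranked by reads, and classes of about 1 in 5 calls with the most and with the fewest reads were compared. All ties at the limits were included, which made the class with the fewest reads larger than that. In that of pre-iPSC replicate 1 with the most, at least 51 each, the shift was 41 and 30 bp to the MEF libraries. To pre-iPSC replicate 2 it was 37 bp. In the class with the fewest it was 59, 52 and 58 bp. The same order held for pre-iPSC replicate 2, at 44 and 41 bp against 70 and 60 bp to the MEF libraries.

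**Figure D5:**
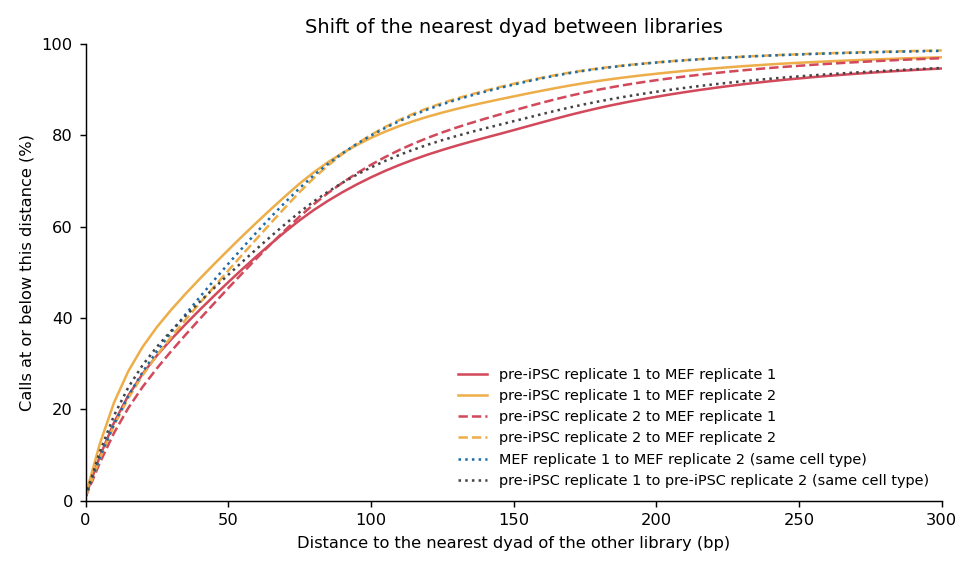
Percent of calls of 1 library whose nearest dyad in another library lies at or below a distance in bp. Unbroken lines start from pre-iPSC replicate 1 and broken lines from pre-iPSC replicate 2, in red to MEF replicate 1 and in yellow to MEF replicate 2; dotted lines are pairs of 1 cell type. The curves of the same cell type lie among those between cell types, whose medians run from 43 to 56 bp.

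Near TSSs, from -1000 to +2000 bp, the shift was 105 and 70 bp from pre-iPSC replicate 1 to the MEF libraries and 66 and 57 bp from pre-iPSC replicate 2. From MEF replicate 1 to MEF replicate 2 it was 55 bp, and from pre-iPSC replicate 1 to replicate 2 it was 116 bp, the largest of these. At the TSSs of highly expressed genes the shift to the MEF libraries was 200 and 157 bp from pre-iPSC replicate 1. It was 106 and 82 bp from pre-iPSC replicate 2. Within cell types it was 84 bp from MEF replicate 1 to replicate 2 and 249 bp from pre-iPSC replicate 1 to replicate 2. There pre-iPSC replicate 1 had 5572 calls, against 3497, 4209 and 3351 in MEF replicate 1, MEF replicate 2 and pre-iPSC replicate 2. Back to pre-iPSC replicate 1, it was 101 and 87 bp from the MEF libraries and 112 bp from pre-iPSC replicate 2. Among calls nearest to each other the shift was 21 bp in each of these pairs with pre-iPSC replicate 1. How far the shift depends on the number of calls was not tested. At the TSSs of genes listed at 0 FPKM it was 58, 43, 55 and 50 bp between cell types. Within 500 bp of a CTCF motif match it was 51, 37, 48 and 42 bp between cell types, 38 bp within MEFs and 49 bp within pre-iPSCs, each below the genome-wide median of the same pair. The share of calls at least 147 bp from the nearest dyad was higher there than genome-wide in each of these pairs, however. From pre-iPSC replicate 1 to MEF replicate 1 it was 24.1% against 19.5%, and from MEF replicate 1 to MEF replicate 2 it was 12.1% against 9.5%. Among calls nearest to each other near these matches the shift was 18, 17, 21 and 22 bp.

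A set of 1126501 calls of pre-iPSC replicate 1, or 32.7%, had such a partner in each of the other 3 libraries. They made up 15.9% and 14.0% of the calls of MEF replicates 1 and 2 and 16.0% of those of pre-iPSC replicate 2. Their 4 dyads spanned a median of 55 bp, and 42061 of them, or 3.73%, spanned at most 10 bp. Within this set, the dyads of the MEF libraries lay a median of 26 bp apart and those of the pre-iPSC libraries 21 bp apart. The mean position of the pre-iPSC dyads lay a median of 18 bp from the mean position of the MEF dyads. Means of 2 positions vary less than single positions, so this value cannot be compared with the 26 and 21 bp. Every partner had to lie less than 73 bp from the call of pre-iPSC replicate 1. This limits the distance between the pre-iPSC libraries more than that between the MEF libraries, so the 26 and 21 bp are not comparable either. These calls held a median of 25 reads in pre-iPSC replicate 1, above the 19 of all its calls, and had a fuzziness of 30.48 bp. Some calls of the set were also neighbours in pre-iPSC replicate 1. Where at most 300 bp apart, these had median distances of 212, 211, 217 and 213 bp, in the order of libraries used above. The cell types did not overlap there, though MEF replicate 1 and pre-iPSC replicate 2 lay close together.

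Genes that act on nucleosome spacing were looked up in the RNA-seq libraries. Of 52 genes of remodellers, linker histones, HMG proteins, Ctcf and histone chaperones, 48 were tested. In pre-iPSCs 3 rose and 2 fell, no larger a share than the 16.4% called in either direction among all genes. The remodeller gene Chd7 rose from 0.808 and 0.384 FPKM in MEFs to 7.83 and 5.91 in pre-iPSCs, by 2.30 ± 0.36 on the log2(FPKM + 1) scale (SE, limma adjusted p = 0.00662). Smarca2, an ATPase subunit of SWI/SNF complexes, rose from 6.10 and 14.8 to 30.4 and 69.2 FPKM (limma adjusted p = 0.00865). Hmgb2, a DNA-bending HMG protein, rose from 35.8 and 35.2 to 128 and 155 FPKM (limma adjusted p = 0.0155). Hmga2, an architectural protein that binds AT-rich DNA, stood at 269 and 173 FPKM in MEFs and 38.4 and 13.4 in pre-iPSCs, and Chd3, an ATPase of the NuRD complex, at 51.04 and 34.2 and at 9.51 and 13.3. Both fell, by 3.19 and 1.81 on the log2(FPKM + 1) scale (limma adjusted p = 0.00321 and 0.0239).

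Chd8 was the only gene of this list with a +1 call in every library, at 62, 74, 124 and 159 bp (limma adjusted p = 0.734). The following genes were named for their roles after their values were seen. The ISWI ATPase gene Smarca5 stood at 38.6, 22.5, 32.3 and 25.9 FPKM in MEF replicates 1 and 2 and pre-iPSC replicates 1 and 2, with overlapping groups (limma adjusted p = 0.976). The nucleosome-spacing remodeller gene Chd1 stood at 16.3, 5.15, 14.9 and 19.9 FPKM and Ctcf at 22.8, 13.6, 28.5 and 21.5 FPKM, again with overlapping groups (limma adjusted p = 0.378 and 0.434). Among linker histone genes, Hist1h1c stood at 31.2 and 69.8 FPKM in MEFs and at 21.7 and 15.7 in pre-iPSCs (limma adjusted p = 0.0946). H1fx stood at 13.8 and 30.9 FPKM in MEFs and at 42.7 and 50.7 in pre-iPSCs (limma adjusted p = 0.153). H1f0 stood at 36.3, 91.4, 53.9 and 31.8 FPKM. Neither Hist1h1c nor H1fx overlapped between the cell types, in opposite directions, and neither passed the test.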

How the data were processed

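H3 MNase ChIP-seq libraries of MEFs and pre-iPSCs (2 each) were compared, with RNA-seq libraries of the same cell types. Per the paper's methods and the labels, the authors mapped reads to mm9 with Bowtie 1.0.1, dropped those without a unique place, capped duplicates, shifted each read 73 bp toward the dyad and found nucleosomes with GeneTrack. Each deposited call has a read count and a fuzziness in bp. The authors aligned RNA-seq reads with TopHat2 2.0.4 and computed the deposited FPKM with Cufflinks 2.0.2. Reads outside the calls were not used here.

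Reads of the mark calls of MEF replicate 1 were summed in bins. Calls of 147 bp with at least 5 reads were used. Counts of dyad-to-dyad distances were smoothed with a Gaussian of SD 20 bp (5 bp for the first peak), and dyads around TSSs and motif matches with one of 15 bp after a trend of SD 100 bp was taken off. Positions and spacings per gene were tested with limma 3.58.1 (no trend) and called at an adjusted p below 0.05. These tests follow the positions of calls and are not count tests. Expression was tested with limma (trend) on log2(FPKM + 1) with the table as a term, leaving out genes whose mean over 6 libraries was below 0.5 FPKM, and called at a log2 change of at least 1 and an adjusted p below 0.05. Genes were named as those with the smallest p, 5 in each direction where none was called, up to 4 members of each list in the order of the list, and every spacing gene called in expression. Some genes that this rule names are not reported here. Members, lists and tests were chosen with earlier results of these data known. In fits without 1 library, the remaining one of that cell type is assumed to have the spread of the other cell type. Scripts were tested on simulated data. Annotation was GENCODE vM1 on NCBIM37, the sequence of mm9. Python 3.11.15, numpy 2.4.6, pandas 2.3.3, scipy 1.17.1 and R 4.3.3 were used. The other marks of pre-iPSCs, and H3 files of iPSCs beyond the values given, were not analysed here.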

Additional observations from a re-analysis of the deposited data

How the results depend on the processing

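Of 78 alternatives over 8 results, 14 moved the value by more than 1 SD, and 1 more did so with the opposite sign. Changes of sign within 1 SD are counted among the others. The SD was that between libraries of a cell type, and for the shift that over pairs, which share libraries. The 78 also hold counts of genes called by limma, which have no SD and stayed at 0, so these do not bear on stability. The cause of the moves was not tested. The difference in the median neighbour distance was 62 bp without an upper limit, 0 bp up to 250 bp, 1 bp with calls of at least 10 reads and 2 bp with equal numbers of calls. The difference in repeat length was 9.75 bp from peaks 1 to 3 and 10.8 bp from a damped cosine. The +1 position differed by 7.75 bp with calls of at least 10 reads and by 8 bp from the peak of summed calls. The +1 to +3 spacing differed by -29.25 bp with calls of at least 10 reads and turned to 5.5 bp with equal numbers of calls. The mean shift was 24.5 bp for calls nearest to each other, 127 bp from MEF calls, 45 bp with calls of at least 2 reads, 188.25 bp with at least 10 and 135.25 bp with equal numbers of calls. Leaving out 1 library gave 2.5 to 4.5 bp for the neighbour distance, 2.3 to 8.6 bp for the repeat length, -2.5 to 6.5 bp for the +1 position, -9.5 to -2 bp for the +1 to +3 spacing, -1.25 to 1.75 bp for the CTCF spacing and 46.5 to 55 bp for the shift. The +1 position was negative without pre-iPSC replicate 2 (-2.5 bp) and with the call with the most reads (-1 bp). The sign was that reported in 12 of 12 alternatives for the repeat length, 9 of 10 for the neighbour distance, 7 of 8 for the +1 to +3 spacing, 7 of 10 for the +1 position and 3 of 8 for the CTCF spacing. By limma 0 genes were called in every alternative that could be fitted, which, given what these tests can detect, says nothing about stability. The spacing per gene with calls of at least 10 reads could not be fitted. Peaks 2 to 5, the damped cosine, peaks 1 to 5 around CTCF and the peak of summed calls were chosen after the data were seen. With a replicate block for the 2 sets of libraries (titles without and with rep, chosen after the data were seen), limma called 0 genes for position and 0 for spacing, with 150 and 86 at an unadjusted p below 0.05; the labels do not say that a set shares a batch. Within the sets pre-iPSC minus MEF was 3 and 4 bp for the neighbour distance, -8 and -3.5 bp for the +1 to +3 spacing, -4 and 8 bp for the +1 position and -2 and 2.5 bp for the CTCF spacing. With 2 libraries of each cell type, the test per gene was too weak, on simulated data, to call +1 positions that differed by nearly the whole window. Of the differences in spacing simulated, it called only those of 200 bp, wider than these distances allow.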
